A study of Brassica juncea with 18 samples.

Results

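Basic helix-loop-helix (bHLH) transcription factors were examined in siliques, the pods, of Indian mustard (Brassica juncea) after cold stress. A transcript was taken as a bHLH factor when its annotated domain held HLH or when the name of its best protein hit contained bHLH, helix-loop-helix or phytochrome interacting factor. The rule found 103 transcripts of 61 unigenes among 13342 transcripts of 9446 unigenes, and its 103 members include a PIL1 transcript (c65818_g6_i7) and an ORG3-like transcript (c57701_g1_i2). The HLH domain was annotated in 90 members, while 13 were found by the name of the hit alone. In 1 member, c32783_g1_i1, the HLH model stood among proline-rich domains, so its place in the family is doubtful.

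Field-grown plants of var. Varuna were self-pollinated by hand, and branches were cut and stood in water at 4 °C in light for 6 h or 12 h. Branches kept in water under field conditions were the controls. Whole siliques of 6 ages, every 5 days from 5 to 30 days after pollination (DAP), gave 1 RNA-seq library for each age and duration, 18 in all, of which 6 were controls, 6 had 6 h and 6 had 12 h of cold. Cut branches are the model here, and a field control differs from the cold samples in more than temperature. The sources used here do not give the time of day at sampling.

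Members of the family carry a short basic stretch that touches DNA and a helix-loop-helix that joins a partner, so most act as pairs. Several small members lack the basic stretch and work by holding other members away from DNA. In Arabidopsis, phytochrome-interacting factors and their relatives link light and warmth to elongation, ORG3 and its close relatives switch on iron uptake, and ICE1 acts both in the cold response and in the stomatal lineage. Most roles below are known from Arabidopsis and are given as background. No gene sequence accompanies the expression values, and members are identified by the transcript identifier and the best hit.

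The values are FPKM, fragments scaled by transcript length and library size, and the number of reads behind each value is unknown. Differences are limma estimates on log2(FPKM + 1), a scale that understates the change of transcripts with low FPKM, and calls were made at an adjusted p below 0.05, adjusted over all 13342 transcripts. The 6 stages served as the replicates, so that the p-values measure only the spread between these single libraries. The table holds only transcripts that had already been called between some pair of the same libraries, and PIL1 and the ORG3-like transcript belonged to a subset picked as cold-inducible at early stages. A call here is therefore not independent evidence. Libraries held 11194 to 12462 transcripts above 0 and a summed level of 71973 to 188212 FPKM. Libraries also differed in the share of reads kept by quality filtering. At each stage the 6 h and control libraries fell on the same side of a limit of 90%. The 12 h libraries at 5 to 20 DAP fell below that limit and their controls above it, so 12 h of cold and this difference cannot be told apart there. In whole siliques, fewer cells of a type and less RNA per cell cannot be told apart.

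The members were mostly of low abundance. Of the 103, 65 averaged at least 1 FPKM over the 18 libraries (63.1%, beside 65.8% of all transcripts), and 6 averaged at least 10 FPKM. The median of the members' means was 1.32 FPKM, and that of all transcripts 1.83 FPKM. Levels were above 0 in all 18 libraries for 76 members. The highest value of any member was 72.02 FPKM, for c71448_g1_i1 in the 5 DAP control. The summed level of the 103 members lay between 290.2 and 432.7 FPKM in control siliques, between 220.0 and 426.9 FPKM after 6 h, and between 231.1 and 388.3 FPKM after 12 h, so the ranges overlapped.

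More members fell than rose in cold. After 6 h of cold, 19 members of 15 unigenes were lower and 7 of 6 unigenes were higher, which is 18.4% and 6.8% of the 103, while over all transcripts tested 9.21% were lower and 12.6% higher. After 12 h, 21 members of 15 unigenes were lower and 9 of 6 unigenes were higher, or 20.4% and 8.7%, against 11.2% lower and 10.2% higher over all transcripts. The median change of the members was -0.07 at 6 h and -0.12 at 12 h on the log2 scale, beside -0.002 and -0.043 for all transcripts. In all, 39 members of 28 unigenes were called at 6 h or 12 h and 64 at neither. The share of all transcripts called at either duration was not counted, so these totals have no background beside them. Both durations were set against the same controls, so their calls are not independent of each other. With the side of the 90% limit as a term, the 6 h counts were 6 higher and 21 lower, whereas the 12 h counts were 1 higher and 3 lower. The only members that kept a 12 h call with that term were c65818_g6_i7 (PIL1, higher) and c29951_g1_i1, c60498_g1_i1 and c62876_g1_i4 (lower). Every other member's call for 12 h against control was lost with it. At most stages the 12 h and control libraries fell on different sides, and with the term both the 12 h estimates and their standard errors changed. In c51935_g1_i2 the 12 h change went from -0.99 (SE 0.21) to -1.06 (SE 0.34). In c61777_g1_i2 it went from -1.22 (SE 0.24) to -0.84 (SE 0.37). The change of c65395_g1_i2 went from -0.99 to -0.33, so estimates shrank in some members and grew in others. Counts over all transcripts with the term are not given here. Whether read filtering lay behind the lost calls was not tested.

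**Figure D1:**
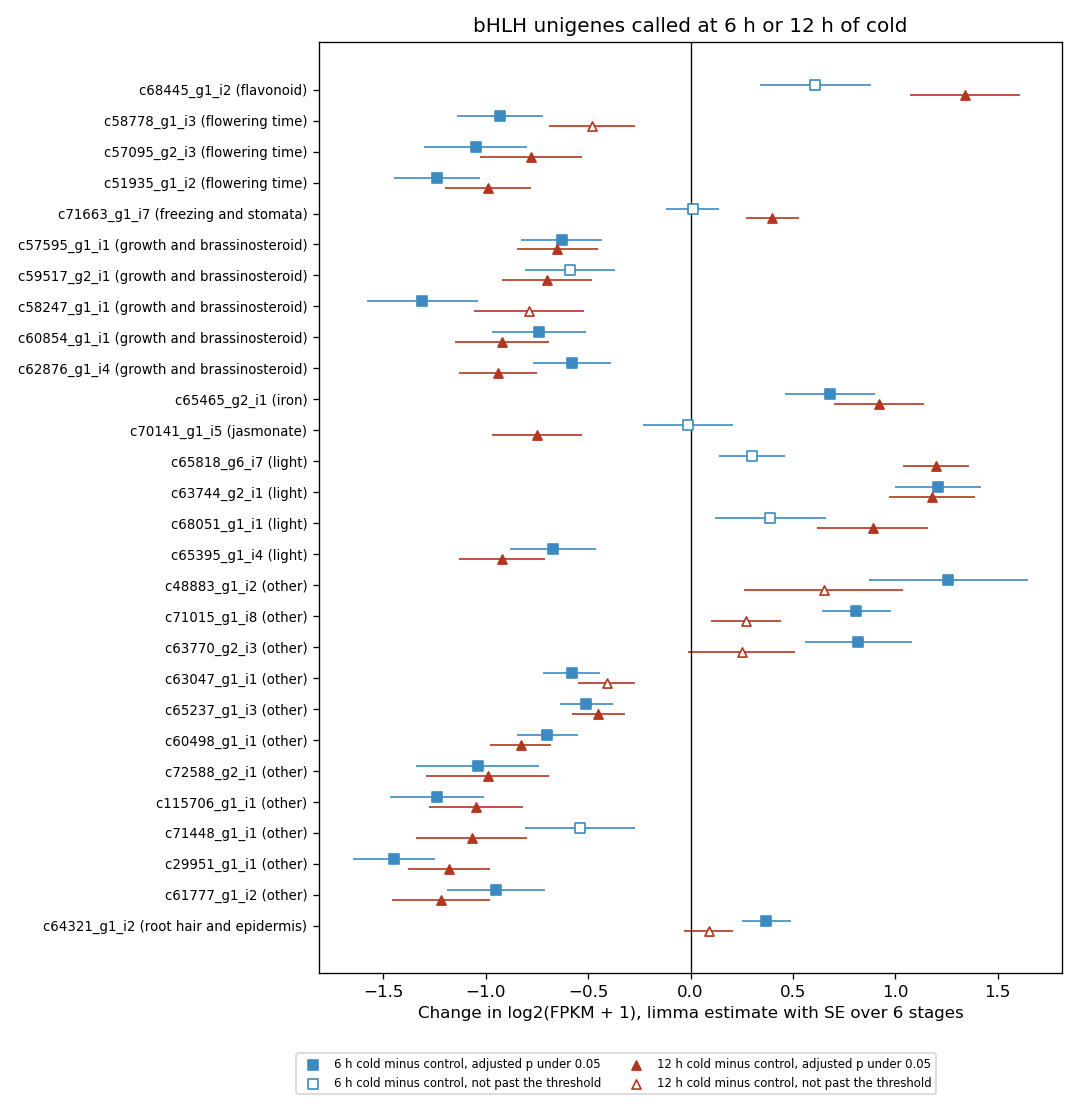
Change in log2(FPKM + 1) after 6 h (squares) and 12 h (triangles) of cold against control for the 28 bHLH unigenes called at either duration, 1 transcript each, grouped by role. Points are limma estimates over 6 stages, bars are standard errors, and filled symbols passed an adjusted p of 0.05; PIL1 (c65818_g6_i7) stands at 1.20 after 12 h and 0.30 after 6 h, and bHLH1 (c29951_g1_i1) at -1.18 and -1.45.

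Among the 10 members linked to light (5 unigenes), the test called 1 higher and 1 lower after 6 h, and 5 higher and 3 lower after 12 h. By unigene, the 12 h calls were 3 higher and 1 lower, since isoforms of the same unigene were called together. Over all transcripts tested, 10.2% were higher and 11.2% lower at 12 h. PIL1 is a phytochrome-interacting-factor-like protein whose Arabidopsis gene responds quickly to shade light. Its transcript c65818_g6_i7 had 0.5, 0.45, 0.35, 0.18, 0.46 and 0.21 FPKM in control siliques, from the youngest stage to the oldest. It had 0.77, 1.24, 0.63, 0.62, 0.41 and 0.43 FPKM after 6 h, and 4.41, 3.33, 2.04, 1.36, 1.3 and 1.34 FPKM after 12 h. Every 12 h library was thus above every 6 h and control library, while the 6 h and control libraries overlapped. The mean over stages was 2.30 ± 1.30 FPKM after 12 h and 0.358 ± 0.136 FPKM in controls (SD, n = 6 each).

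PIL1 rose by 1.20 on the log2 scale after 12 h against control (SE 0.16, adjusted p = 1.02e-04 by limma), higher in 6 of 6 stages. In FPKM, the 12 h library held 2.83 times (25 DAP) to 8.82 times (5 DAP) the level of its control. After 6 h the change was 0.30 (SE 0.16, adjusted p = 0.229), higher in 5 of 6 stages. The 12 h libraries also exceeded the 6 h libraries, by 0.90 (SE 0.16, adjusted p = 0.00382) in 6 of 6 stages. Of the members, 3 were higher after 12 h than after 6 h (2.9%) and none was lower, against 1.29% and 3.62% of all transcripts. These 3 were all isoforms of the PIL1 unigene: c65818_g6_i7, c65818_g6_i5 and c65818_g6_i1. At an unadjusted p under 0.05 in limma, 6 members were higher and 9 lower after 12 h than after 6 h (5.83% and 8.74% of the members, beside 4.86% and 9.99% of all transcripts).

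The difference between 12 h and control held for c65818_g6_i7 with the side of the 90% limit as a term (0.90, adjusted p = 0.0306), but the difference between 12 h and 6 h did not (0.61, adjusted p = 0.331). At 25 and 30 DAP, where all libraries fell below the limit, PIL1 stood at 1.3 and 1.34 FPKM after 12 h, against 0.46 and 0.21 FPKM in controls. In late stages (20 to 30 DAP) the mean of both cold durations stood 0.54 above control (SE 0.17, adjusted p = 0.054). In early stages (5 to 15 DAP) it stood 0.96 above (SE 0.17, adjusted p = 0.00215). That early-stage call was lost with the side of the 90% limit as a term (adjusted p = 0.0619). The late minus early difference was -0.41 (SE 0.24, adjusted p = 0.957), so a weaker response at late stages was not established.

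Of the 4 isoforms of the PIL1 unigene in the table, 3 were called at 12 h. The isoforms c65818_g6_i5 and c65818_g6_i1 rose at 12 h by 1.27 (SE 0.19, adjusted p = 3.12e-04) and 0.93 (SE 0.15, adjusted p = 4.64e-04). Both calls were lost with the side of the 90% limit as a term (adjusted p = 0.0703 and 0.0685). The fourth isoform in the table, c65818_g6_i2, whose best hit is a protein predicted in Arabidopsis lyrata, changed by -0.20 (SE 0.15, adjusted p = 0.405) and was lower than control in 5 of 6 stages. In controls it had 1.25, 0.82, 0.75, 1.84, 4.87 and 6.3 FPKM from 5 to 30 DAP, and its late minus early difference was not called (1.28, SE 0.50, adjusted p = 0.161). Reads shared between isoforms were divided by estimation, so the values of single isoforms are less certain than those of a unigene.

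PIF4, which promotes elongation in warm conditions and is bound by phytochrome B, moved in the opposite direction. Its transcript c65395_g1_i4 had 1.74, 3.03, 1.93, 1.3, 0.57 and 0.11 FPKM in controls from 5 to 30 DAP. It had 0.39, 0.4, 0.48, 0.59, 0.36 and 0.3 FPKM after 6 h, and 0.24, 0.2, 0.2, 0.09, 0.37 and 0.05 FPKM after 12 h. Cold siliques were far below controls up to 20 DAP, and at 25 and 30 DAP the groups lay close together, with controls themselves low. PIF4 fell by 0.92 at 12 h (SE 0.21, adjusted p = 0.00616) and by 0.67 at 6 h (SE 0.21, adjusted p = 0.0361).

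The late-stage change of PIF4 was -0.31 (SE 0.19, adjusted p = 0.381), and its early-stage change was -1.28 (SE 0.19, adjusted p = 8.58e-04). The difference between phases was 0.97 (SE 0.27, unadjusted p = 0.00416), which did not pass the adjustment (adjusted p = 0.713). Isoforms c65395_g1_i2 and c65395_g1_i3 also fell at 12 h, by 0.99 and 0.86, and c65395_g1_i2 was the most abundant of the 3 in controls, with 6.44 FPKM at 5 DAP, against 1.66 FPKM after 12 h. For c65395_g1_i4, the side of the 90% limit as a term left the 6 h call (-0.67, adjusted p = 0.025) but neither the 12 h call (-0.48, adjusted p = 0.415) nor the early-stage call (-0.94, adjusted p = 0.0624). The 12 h calls of c65395_g1_i2 and c65395_g1_i3 were lost as well, with changes of -0.33 (adjusted p = 0.609) and -0.35 (adjusted p = 0.664).

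**Figure D2:**
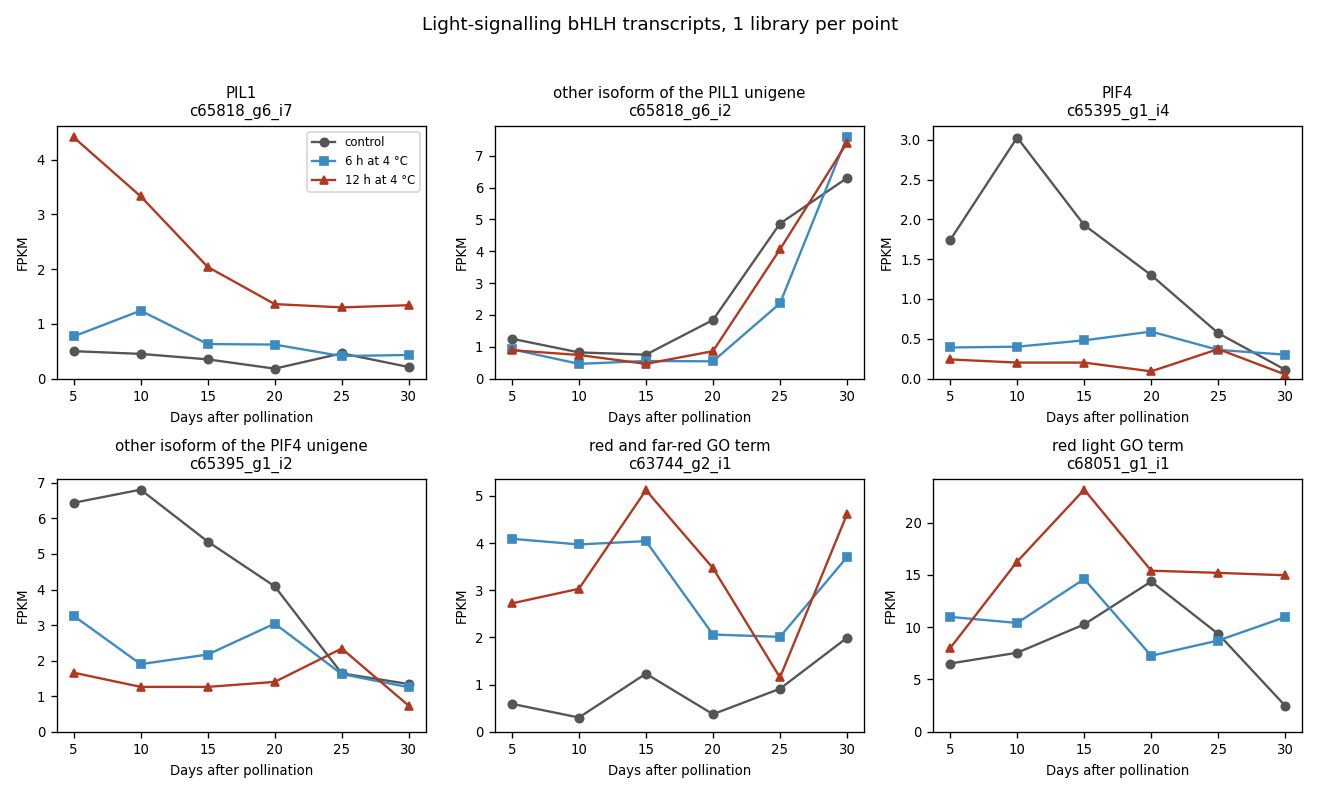
FPKM of 6 light-linked bHLH transcripts against days after pollination, 1 library per point, in control siliques (circles) and after 6 h (squares) and 12 h (triangles) at 4 °C. PIL1 after 12 h lies between 1.3 and 4.41 FPKM, above every control (at most 0.5 FPKM), whereas PIF4 (c65395_g1_i4) lies at most at 0.37 FPKM after 12 h, against up to 3.03 FPKM in controls.

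A further pair of light-linked transcripts rose. Annotated with red and far-red light phototransduction, c63744_g2_i1 had 0.3 to 1.99 FPKM in controls (median 0.75), 2.01 to 4.09 FPKM after 6 h (median 3.84) and 1.15 to 5.12 FPKM after 12 h (median 3.25). Every 6 h library was above every control. The 6 h rise was 1.21 (SE 0.21, adjusted p = 6.97e-04) and the 12 h rise 1.18 (SE 0.21, adjusted p = 8.99e-04), higher in 6 of 6 stages at both durations. It was the only member called higher in both the late stages (0.88, adjusted p = 0.0284) and the early stages (1.52, adjusted p = 9.64e-04). The 6 h call held with the side of the 90% limit as a term (adjusted p = 6.74e-04), and the 12 h call (0.82, adjusted p = 0.129), the late-stage call (adjusted p = 0.0578) and the early-stage call (adjusted p = 0.0681) did not. The late-stage call was also lost without 5, 10, 20 or 30 DAP, with an adjusted p of up to 0.192. The transcript c63744_g1_i2, of another unigene with the same best hit, was low (at most 2.72 FPKM) and was not called (0.36 at 12 h, adjusted p = 0.186).

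The other, c68051_g1_i1, carries the red light signalling term and was among the 6 most abundant members. It had 7.99, 16.27, 23.15, 15.4, 15.19 and 14.96 FPKM after 12 h from 5 to 30 DAP, against 6.52, 7.55, 10.26, 14.37, 9.35 and 2.47 FPKM in controls. It was higher in 6 of 6 stages, by 0.89 (SE 0.27, adjusted p = 0.0337), but the gain was small at 5 and 20 DAP. That call was lost in 7 of 14 alternatives: without the 10, 15, 25 or 30 DAP libraries, with a pseudocount of 0.1, without the stage block, and with the side of the 90% limit as a term, the highest adjusted p over the alternatives being 0.115.

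Other light-signalling genes were few in the table: 9 transcripts of 7 unigenes had a best hit naming a photoreceptor or a known regulator. At each duration the test called 1 of them higher and 1 lower, and the list's median change was -0.21 at 12 h. The riser was c63953_g1_i2, best hit an HY5-like protein, a bZIP factor of light-grown development. It had 4.0, 3.76, 1.86, 2.72, 4.72 and 4.35 FPKM after 12 h from 5 to 30 DAP, against 0 to 0.25 FPKM in controls, and it rose by 1.98 (SE 0.21, adjusted p = 1.37e-05). After 6 h it rose by 1.38 (SE 0.21, adjusted p = 2.78e-04). The other was c61589_g1_i1, best hit the homeobox protein HAT1, which fell by 0.65 at 12 h (SE 0.21, adjusted p = 0.0387) and by 0.71 at 6 h (SE 0.21, adjusted p = 0.0238). The table held 2 green-tissue marker transcripts, with a summed level at 5 to 15 DAP of 2.8 to 7.2 FPKM in controls, 21.3 to 33.0 FPKM after 6 h and 5.1 to 21.8 FPKM after 12 h. One of the 2 was called higher at each duration, and its part in these results was not tested.

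The iron group held 2 members, and their patterns differed. ORG3, short for OBP3-responsive gene 3, works in Arabidopsis with the factor FIT to switch on iron uptake in roots. The ORG3-like name of c57701_g1_i2 comes from the study's primer list; its best hit is an unnamed protein, and its annotation names cellular response to iron starvation. It had 1.63, 1.15, 1.96, 1.22, 0.83 and 0.32 FPKM in controls from 5 to 30 DAP. It had 3.1, 22.63, 1.52, 7.35, 0.97 and 1.15 FPKM after 6 h, and 1.86, 1.33, 1.68, 2.85, 0.8 and 1.12 FPKM after 12 h. The 10 DAP and 20 DAP libraries after 6 h stood far above the rest, at 19.7 and 6.02 times their controls, followed by 3.1 FPKM (5 DAP after 6 h) and 2.85 FPKM (20 DAP after 12 h), and every other cold library lay at or below the highest control.

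The 6 h change of the ORG3-like transcript was 1.10 (SE 0.40, adjusted p = 0.0718), higher in 5 of 6 stages, and it was not called. With a pseudocount of 0.1 in place of 1 the change was 1.50 (adjusted p = 0.0409). At 12 h the change was 0.26 (SE 0.40, adjusted p = 0.74), and 12 h against 6 h gave -0.84 (SE 0.40, adjusted p = 0.362). Although it was picked in the study as inducible at early stages, the late-stage change over both durations was 0.70 (SE 0.52, adjusted p = 0.501). The early-stage change was 0.66 (SE 0.52, adjusted p = 0.491). The paper also measured this transcript by quantitative PCR in independent biological replicates. There it reports induction by cold at 5 DAP, and either no induction or a lower level at late stages.

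The second iron member, c65465_g2_i1, had OBP3-responsive gene 3 as its best hit and was steadier. It had 0.26, 0.5, 0.95, 1.63, 0.99 and 0.21 FPKM in controls, 0.47, 2.36, 1.23, 2.31, 2.45 and 2.19 FPKM after 6 h, and 0.52, 1.35, 2.44, 4.71, 2.06 and 4.01 FPKM after 12 h. Each cold library exceeded the control of its own stage, although the groups overlapped across stages. Its 6 h rise was 0.68 (SE 0.22, adjusted p = 0.0375), its 12 h rise 0.92 (SE 0.22, adjusted p = 0.00767) and its late-stage rise 1.05 (SE 0.26, adjusted p = 0.021). The 6 h call was lost without the libraries of any 1 stage from 10 to 30 DAP, with a highest adjusted p of 0.255 over the alternatives, and the late-stage call without 20 or 30 DAP. Its 12 h change was 1.13 (adjusted p = 0.0659) once the side of the 90% limit was a term.

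Of 10 iron-handling transcripts of 5 unigenes, the test called 3 higher and 2 lower after 6 h, and 3 higher and 1 lower after 12 h. The higher ones were isoforms of a ferritin, the iron-storage protein. Isoform c68170_g1_i13 had 64.29, 54.45, 71.41, 62.88, 115.21 and 207.62 FPKM after 12 h from 5 to 30 DAP, against 24.45, 23.25, 31.72, 24.25, 38.94 and 69.17 FPKM in controls. It was above control at every stage, and its rise was 0.97 after 6 h (SE 0.14, adjusted p = 1.52e-04) and 1.36 after 12 h (SE 0.14, adjusted p = 9.13e-06). The transcripts that fell, c71381_g1_i1 and c71381_g1_i2, had a cytochrome b561 and ferric reductase domain protein as best hit, with -0.72 and -0.62 at 6 h and, for c71381_g1_i1, -0.59 at 12 h.

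**Figure D3:**
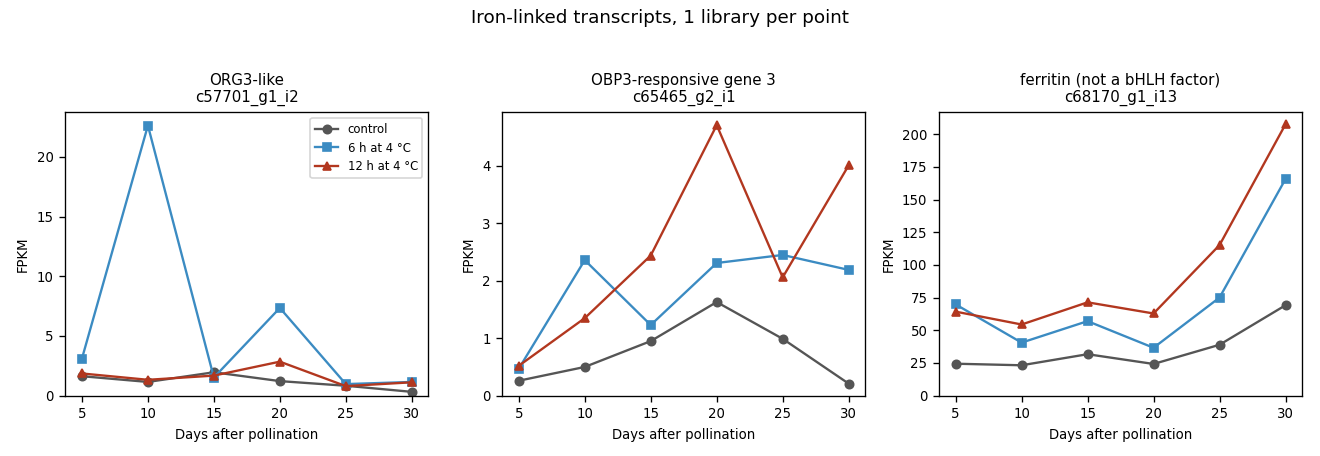
FPKM of the ORG3-like transcript, of c65465_g2_i1 (best hit OBP3-responsive gene 3) and of a ferritin isoform against days after pollination, 1 library per point, in control siliques (circles) and after 6 h (squares) and 12 h (triangles) at 4 °C. The ORG3-like transcript peaks in a single library (22.63 FPKM, 10 DAP after 6 h), while ferritin is above control in every cold library.

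The transcripts most like PIL1 and the ORG3-like transcript in their course over the 18 libraries were sought by Pearson correlation of log2(FPKM + 1), given as a description, since all values share the same libraries. The 5 transcripts most like c65818_g6_i7 had r of 0.904 to 0.959, and 3 of them had no best hit. Of the named ones, c59966_g1_i1 is annotated as an anion exchange family protein (r = 0.909), with 7.12 to 24.82 FPKM after 12 h, against 2.73 to 5.77 FPKM in controls. The 5 most like c57701_g1_i2 had r of 0.870 to 0.941, and each had its highest level in the 10 DAP library after 6 h. An example is c66625_g1_i2, with 36.07 FPKM in that library, beside 3.0 FPKM in the control and 4.03 FPKM after 12 h at that stage.

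Growth-related members fell or did not pass the test. Of 11 members of 8 unigenes linked to brassinosteroid or cell elongation, the test called 4 lower at each duration and none higher. The group's median change was -0.58 at 6 h and -0.65 at 12 h. Banquo 2, a small factor without a DNA-binding stretch that favours elongation, is the best hit of c58247_g1_i1. It had 2.03, 3.42, 6.44, 8.42, 4.15 and 1.56 FPKM after 6 h from 5 to 30 DAP, against 6.16, 18.57, 21.76, 16.53, 17.82 and 1.72 FPKM in controls. Controls were high from 10 to 25 DAP and the 6 h libraries lay below them at each of those stages. It fell by 1.31 at 6 h (SE 0.27, adjusted p = 0.00286), and at 12 h the change was -0.79 (SE 0.27, adjusted p = 0.054).

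BEE3, a target of brassinosteroid that promotes growth, is the best hit of c62876_g1_i4. It had 0.65, 0.45, 0.26, 0.11, 1.48 and 0.09 FPKM after 12 h, against 1.35, 1.96, 1.75, 0.46, 3.03 and 3.05 FPKM in controls, lower in 6 of 6 stages. BEE3 fell by 0.94 at 12 h (SE 0.19, adjusted p = 0.00224) and by 0.58 at 6 h (SE 0.19, adjusted p = 0.039). The transcripts c60854_g1_i1 (bHLH062, -0.92 at 12 h, adjusted p = 0.00952) and c57595_g1_i1 (-0.65 at 12 h, adjusted p = 0.0307) also fell, and both were among the most abundant members, with control means above 10 FPKM. Of the 4 growth-related calls at 12 h, that of BEE3 was the one kept with the side of the 90% limit as a term (adjusted p = 0.0244), and those of c60854_g1_i1 and c57595_g1_i1 were lost (adjusted p = 0.183 and 0.0816). In c59517_g2_i4, which is annotated with response to brassinosteroid and averaged 0.61 FPKM, the late-stage change was -0.16 (adjusted p = 0.797) and the early-stage change -1.09 (adjusted p = 0.00546). The difference between its phases was not called. Its early-stage call was lost with the side of the 90% limit as a term (adjusted p = 0.191) and without 10 DAP.

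KIDARI (c72398_g3_i2) is a banquo-like factor that restrains light signalling, and IBH1 (c56170_g1_i1, ILI1 binding bHLH 1) is an inhibitor of elongation. Neither was called at any duration. KIDARI reached 0.52, 0.8, 0.79, 0.04, 0.12 and 0.04 FPKM after 12 h, against 0.41, 2.51, 2.82, 0.23, 0.41 and 0.09 FPKM in controls. IBH1 had 2.35 to 15.47 FPKM after 12 h, against 2.61 to 11.91 FPKM in controls, and the groups overlapped. The best hit of IBH1 was weak.

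Flowering-time members followed the same direction: of 6 members of 4 unigenes, the test called 4 lower after 6 h, 3 lower after 12 h and none higher. Annotated with positive regulation of flower development, c51935_g1_i2 had 4.27, 2.63, 3.8, 2.98, 3.87 and 3.58 FPKM in controls. It had 0.97, 1.04, 1.71, 1.59, 0.21 and 0.37 FPKM after 6 h and 0.67, 2.37, 2.15, 1.24, 0.9 and 0.74 FPKM after 12 h, so every control library was above every cold library. It fell by 1.24 at 6 h (SE 0.21, adjusted p = 6.47e-04) and by 0.99 at 12 h (SE 0.21, adjusted p = 0.00353), and it was called in late stages (-1.33) and in early stages (-0.91). Its 12 h call was lost with the side of the 90% limit as a term (-1.06, adjusted p = 0.0762), and so was its early-stage call (-0.87, adjusted p = 0.279). Its late-stage call was lost without 25 or 30 DAP (adjusted p up to 0.0781).

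The transcripts c58778_g1_i3 and c57095_g2_i3 share 1 best hit and the photoperiodism term. In controls at 5 DAP they stood at 14.86 and 15.4 FPKM, and between 1.82 and 4.4 FPKM at all later stages. At 5 DAP they stood at 1.95 and 1.55 FPKM after 6 h, and at 5.76 and 4.52 FPKM after 12 h. Their 6 h falls were 0.93 (SE 0.21, adjusted p = 0.00593) and 1.05 (SE 0.25, adjusted p = 0.00796), lower in 6 of 6 stages for each. At 12 h c57095_g2_i3 fell by 0.78 (adjusted p = 0.0408), and c58778_g1_i3 changed by -0.48 (adjusted p = 0.138).

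Among the 38 members with no role assigned, the test called 4 higher and 10 lower after 6 h, and none higher and 10 lower after 12 h. The smallest p at 6 h belonged to c29951_g1_i1, best hit bHLH1 and annotated with root development. It had 10.59, 2.21, 0.86, 3.88, 3.07 and 4.52 FPKM in controls from 5 to 30 DAP, 3.7, 0.0, 0.24, 0.63, 0.39 and 0.4 FPKM after 6 h, and 7.47, 0.62, 0.24, 0.52, 0.59 and 0.35 FPKM after 12 h. The control was above both cold libraries at every stage. It fell by 1.45 at 6 h (SE 0.20, adjusted p = 1.58e-04), by 1.18 at 12 h (SE 0.20, adjusted p = 8.48e-04) and by 1.70 in late stages (SE 0.20, adjusted p = 2.10e-04). With the side of the 90% limit as a term the 12 h fall was 1.53 (adjusted p = 0.00787).

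The most abundant member, c72588_g2_i1, is annotated with seed dormancy and cell growth. It had 18.55, 35.56, 34.87, 36.21, 31.31 and 31.34 FPKM in controls, 12.3, 8.76, 21.01, 28.99, 12.74 and 10.4 FPKM after 6 h, and 3.87, 23.32, 29.99, 18.11, 21.91 and 8.99 FPKM after 12 h. Each cold library was below the control of its stage, and it fell by 1.04 at 6 h (SE 0.30, adjusted p = 0.0216) and by 0.99 at 12 h (SE 0.30, adjusted p = 0.0283). The member c71448_g1_i1 declined with age in controls (72.02, 39.63, 29.02, 13.97, 10.94 and 5.83 FPKM from 5 to 30 DAP). After 6 h it had 19.49, 16.2, 18.01, 22.94, 8.82 and 6.25 FPKM, above control at 20 and 30 DAP, and was not called (adjusted p = 0.197). After 12 h it stood at 30.49, 17.85, 8.67, 7.35, 4.9 and 3.51 FPKM, a change of -1.07 (SE 0.27, adjusted p = 0.0116), below control in 6 of 6 stages.

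Further falls were seen for c115706_g1_i1 (-1.24 at 6 h, adjusted p = 0.00144; -1.05 at 12 h, adjusted p = 0.00482) and c60498_g1_i1 (-0.70 at 6 h, adjusted p = 0.00405; -0.83 at 12 h, adjusted p = 0.00141), each lower in 6 of 6 stages. The 12 h change of c115706_g1_i1 was -0.78 (adjusted p = 0.235) with the side of the 90% limit as a term. The early-stage fall was steepest in c61777_g1_i2 (-1.64, SE 0.22, adjusted p = 4.68e-04), which had 0.95, 1.97 and 0.24 FPKM after 12 h at 5, 10 and 15 DAP, against 11.04, 7.67 and 1.87 FPKM in controls. It remained called in early stages with the side of the 90% limit as a term (-1.54, adjusted p = 0.0285), the only member to do so. Early falls of c50243_g1_i1 (bHLH93, -1.17, adjusted p = 0.00375) and c71448_g1_i1 (-1.28, adjusted p = 0.00416) were lost with that term. At late stages c63047_g1_i1 (bHLH126) changed by -0.59 (adjusted p = 0.0499), at the edge of the threshold.

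**Figure D4:**
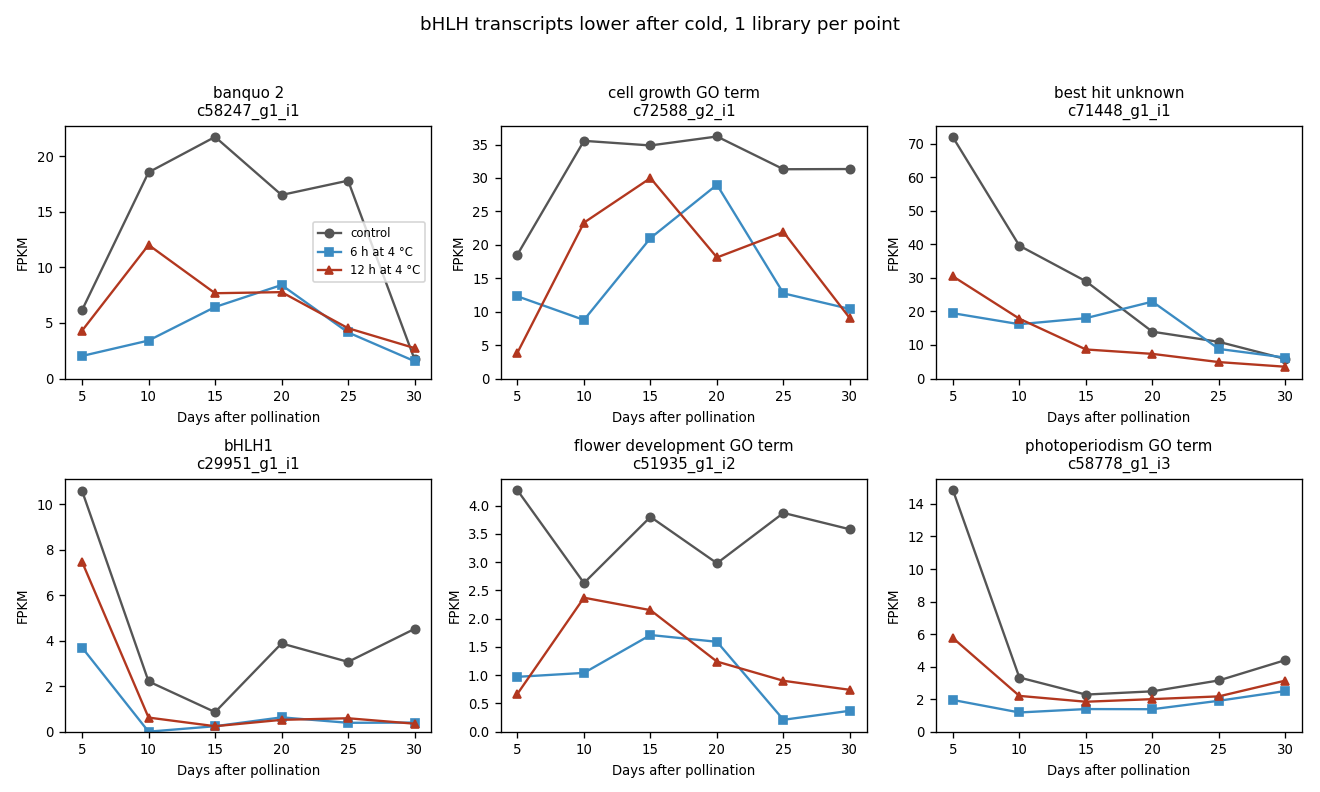
FPKM of 6 bHLH transcripts that fell in cold against days after pollination, 1 library per point, in control siliques (circles) and after 6 h (squares) and 12 h (triangles) at 4 °C. Controls of c51935_g1_i2 (2.63 to 4.27 FPKM) lie above all cold libraries, and c58778_g1_i3 differs most at 5 DAP, with 1.95 FPKM after 6 h against 14.86 FPKM in the control.

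Members that rose outside the light and iron groups were few. An unnamed unigene annotated with positive regulation of flavonoid biosynthesis, a class of pigments and sunscreens, rose at 12 h through both of its isoforms. Isoform c68445_g1_i2 had 21.42, 10.7, 10.46, 10.45, 9.15 and 11.5 FPKM after 12 h, against 3.35, 6.44, 2.37, 3.35, 3.41 and 7.01 FPKM in controls. Every 12 h library was above every control, and it rose by 1.34 (SE 0.27, adjusted p = 0.00264). After 6 h it reached 21.54 FPKM at 5 DAP and 4.54 to 7.18 FPKM at later stages, and the change of 0.61 was not called (adjusted p = 0.136). With the side of the 90% limit as a term its 12 h change was 1.25 (adjusted p = 0.103).

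Risers at 6 h were of low level. The best hit of c71015_g1_i8 is bHLH123, and it had 3.33, 1.46, 1.12, 0.87, 1.39 and 0.92 FPKM after 6 h, against 0.27 to 0.47 FPKM in controls. All 6 h libraries were above all controls, and it rose by 0.81 (SE 0.17, adjusted p = 0.00294), with 0.27 at 12 h (adjusted p = 0.313). The transcript c48883_g1_i2 had 0.05, 1.39, 1.92, 0.26, 1.6 and 19.58 FPKM after 6 h from 5 to 30 DAP, against 0.1, 0.11, 0.14, 0.23, 0.18 and 0.29 FPKM in controls. It was above control at 10, 15, 25 and 30 DAP, most of all at 30 DAP, and close to it at 5 and 20 DAP. Its 6 h rise of 1.26 (SE 0.39, adjusted p = 0.0317) was lost without the 10, 15, 25 or 30 DAP libraries. It was also lost with isoforms summed per unigene and without the stage block. The rises of c63770_g2_i3 (0.82, adjusted p = 0.0379) and of the epidermal factor c64321_g1_i2 (0.37, adjusted p = 0.0439) were also lost when 1 of several stages was left out, with highest adjusted p of 0.433 and 0.426 over the alternatives. Both were lost with median-ratio scaling and without the stage block, and that of c63770_g2_i3 also with summed isoforms.

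Jasmonate-linked members gave 1 call among 3. The transcript c70141_g1_i5 had 0.32 to 1.19 FPKM after 12 h, against 0.76 to 4.72 FPKM in controls, and fell by 0.75 (SE 0.22, adjusted p = 0.0264), while its 6 h change was -0.01. The 9 root hair and epidermis members gave 1 call at 6 h, named above, and none at 12 h. Among these, c65496_g1_i1 had its highest level at 5 DAP, with 10.38 FPKM after 6 h, against 3.37 FPKM in the control.

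Few members annotated with the freezing response or stomata were called in cold. ICE1 activates CBF genes in the cold and, under the name SCREAM, works with SPEECHLESS and MUTE in stomatal formation. Of 19 members of 5 unigenes in this group, 1 was called at 12 h and none at 6 h; the group's median changes were 0.10 and -0.07. The called transcript was ICE1 isoform c71663_g1_i7, with 7.01, 4.76, 4.56, 9.32, 18.31 and 24.91 FPKM after 12 h from 5 to 30 DAP, against 6.46, 3.87, 2.8, 7.14, 9.26 and 20.86 FPKM in controls. It was higher in 6 of 6 stages by 0.40 (SE 0.13, adjusted p = 0.0406), a call that 10 of 14 alternatives did not keep, with adjusted p up to 0.99. The sister isoform c71663_g1_i10 gave 0.27 (SE 0.18, adjusted p = 0.355). The paper also measured ICE1 by quantitative PCR in independent biological replicates. Its primers were listed for c71663_g1_i1, an isoform of this unigene that is not among the members. There it reports induction of ICE1 by cold at 5 and 30 DAP. In the 25 DAP library after 12 h, c71663_g1_i10 stood at 19.09 FPKM, against 6.91 FPKM in the control, a ratio of 2.76, and c71663_g1_i7 at 1.98 times its control. The members of c69914, annotated in the same group, also stood high in that library, at 3.04 times (c69914_g2_i2) to 6.32 times (c69914_g2_i5) their controls, and none of them was called.

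Over the stages, 1 of the 6 isoforms of the same unigene was called. The ICE-like isoform c71663_g1_i3 had 0.0, 0.21, 0.32, 7.9, 9.57 and 23.04 FPKM in controls from 5 to 30 DAP, 0.0, 0.16, 0.54, 4.37, 7.76 and 30.59 FPKM after 6 h, and 0.0, 0.08, 0.59, 5.82, 15.56 and 20.59 FPKM after 12 h. It was almost silent up to 15 DAP and present in every library from 20 DAP, with no difference called for cold. Late exceeded early stages by 3.40 (SE 0.49, adjusted p = 0.035). The summed isoforms of the unigene were not called (1.76, adjusted p = 0.11), and isoform c71663_g1_i10 had 7.62, 4.89, 3.52, 5.01, 6.91 and 21.84 FPKM in controls from 5 to 30 DAP. Of the members, 3 were higher in late than in early stages (2.9%) and none was lower, against 3.43% higher and 0.277% lower over all transcripts. At an unadjusted p under 0.05 in limma, 13 members were higher and 8 lower (12.6% and 7.77%, beside 19.3% and 8.69% of all transcripts). The median of all transcripts for this comparison was 0.005, and -0.132 after median-ratio scaling.

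The others were c62907_g1_i2 (2.52, SE 0.46, adjusted p = 0.0426), annotated with embryo development, and c59211_g1_i2 (1.98, SE 0.37, adjusted p = 0.043). The transcript c62907_g1_i2 reached 12.65 FPKM in the 30 DAP control and was at most 0.14 FPKM in any library at 5 or 10 DAP. All 3 calls were lost without the 5, 10, 25 or 30 DAP libraries and without the single 5 DAP library after 6 h. RGE1 (c33125_g1_i1), also called ZHOUPI, acts in the endosperm to free space for the embryo and pairs with ICE1 there. It had 0.0, 0.0, 0.48, 1.59, 4.57 and 2.52 FPKM in controls, a late minus early difference of 1.23 (SE 0.37, adjusted p = 0.0998).

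SPEECHLESS and MUTE had at most 3.12 FPKM in any library, and no isoform of either was called between late and early stages. MUTE isoform c69912_g1_i6 had 1.84 and 0.59 FPKM at 5 and 10 DAP in controls, and was listed at 0 in every library from 20 DAP (late minus early -0.43, SE 0.30, adjusted p = 0.363). SPEECHLESS isoform c70813_g1_i6 had 1.08 and 0.31 FPKM in these controls and at most 0.53 FPKM later in controls (late minus early -0.43, SE 0.36, adjusted p = 0.428). A brassinosteroid-linked member with petal and stamen terms, c60430_g1_i1, had 15.53 and 1.07 FPKM at 5 and 10 DAP in controls and at most 0.02 FPKM in any later library. The 39 embryo and seed marker transcripts summed to 115.8 to 1729.8 FPKM in late libraries, against 7.2 to 27.8 FPKM in early ones. Of these, 12 were called higher at late stages and none lower, and 3 were at 0 in all early libraries. The 11 pollen and stamen markers summed to 4.3 to 52.3 FPKM in late and 21.5 to 94.5 FPKM in early libraries, none was called, and 1 was at 0 in all early libraries. The part of these tissues in the stage courses was not tested.

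**Figure D5:**
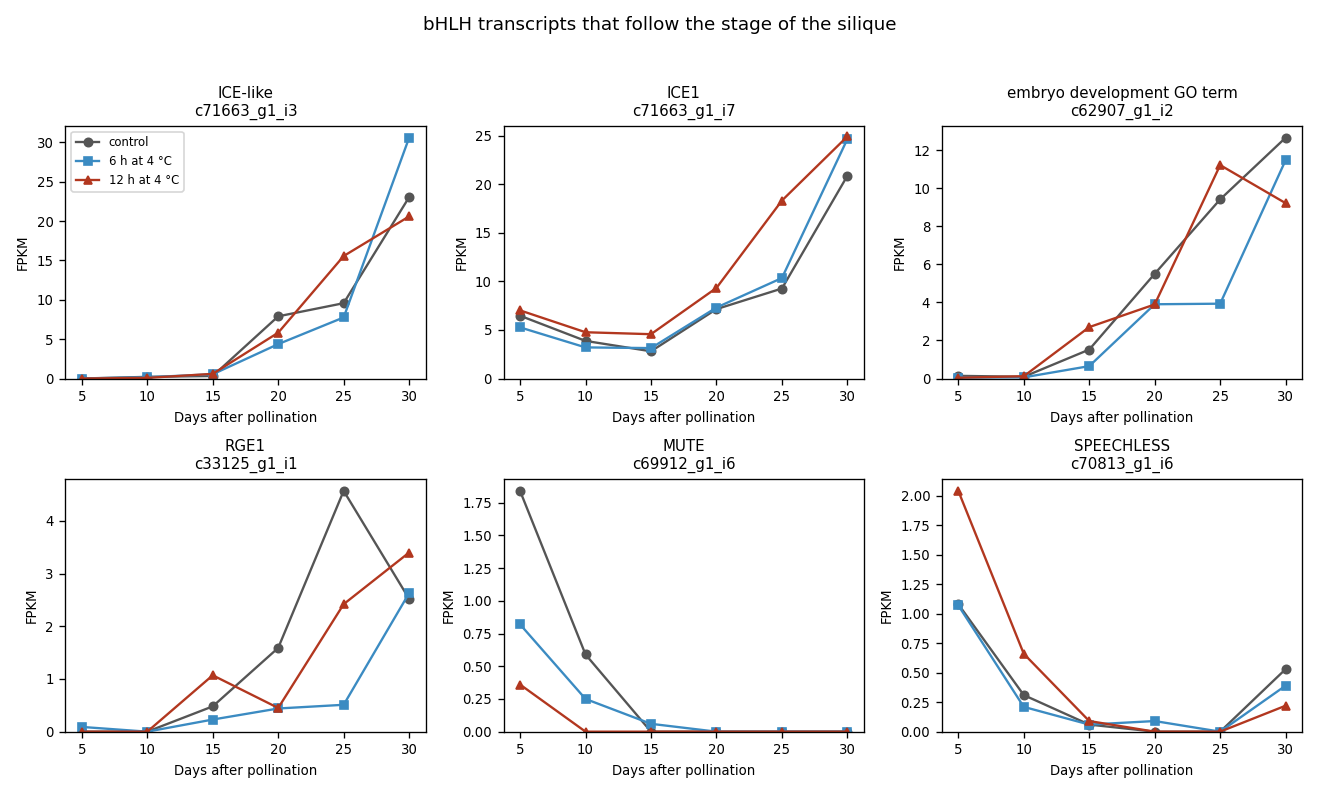
FPKM of 6 bHLH transcripts against days after pollination, 1 library per point, in control siliques (circles) and after 6 h (squares) and 12 h (triangles) at 4 °C. The ICE-like isoform stays at or below 0.59 FPKM up to 15 DAP and reaches 20.59 to 30.59 FPKM at 30 DAP, whereas the plotted MUTE isoform is listed at 0 from 20 DAP.

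Split by phase, 2 members were higher and 6 lower in cold at late stages (1.9% and 5.8%, beside 7.7% and 5.55% of all transcripts). At early stages 7 were higher and 19 lower (6.8% and 18.4%, beside 10.6% and 7.44% of all transcripts). In both phases 1 member was called higher and 4 lower, and the matching share of all transcripts was not counted. The difference in response between phases, late minus early, was called for none of the 103, as for 0% of all transcripts. At an unadjusted p under 0.05 in limma, 10 members were higher and 2 lower (9.71% and 1.94%, beside 2.83% and 2.77% of all transcripts). Because no difference passed the adjustment, fewer calls at late stages do not show a smaller response.

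Some members peaked in single libraries in place of a group. bHLH96 (c67109_g2_i1) had 42.6 FPKM at 20 DAP after 6 h and 23.33 FPKM at 25 DAP after 12 h, and 2.2 to 9.19 FPKM in the other 16 libraries. Its changes were 0.30 at 6 h (SE 0.47, adjusted p = 0.728) and 0.56 at 12 h (SE 0.47, adjusted p = 0.47). These libraries were the 2 highest for 4 members of 3 unigenes (3.88% of the members, beside 1.66% of all transcripts): c67109_g2_i1, c66037_g1_i1, c66037_g1_i2 and c70822_g2_i3. Without both libraries, 6 members were called higher and 21 lower after 6 h, and 8 higher and 19 lower after 12 h. The 5 DAP control was the highest library for 20 members (19.4%, beside 6.38% of all transcripts), and the 5 DAP library after 6 h for 11 (10.7%, beside 19.4%).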

How the data were processed

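Siliques of 6 stages and 3 durations of cold gave 18 RNA-seq libraries, 1 for each combination. Per the paper's methods and the processing notes, the authors filtered reads, assembled them de novo (Trinity), mapped them back (Bowtie2) and obtained abundances through RSEM. The deposited values are FPKM normalized by TMM for 13342 transcripts that the authors had called with edgeR, and the deposited annotation gives lengths, best hits, GO terms and domains. Tool versions: not given in the sources used here. RSEM divides shared reads between isoforms and homeologous copies by estimation. Depth per library cannot be read from the FPKM table, so no counting interval is given.

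log2(FPKM + 1) was fitted with limma 3.58.1 in R 4.3.3, with stage as the block (the labels give each library's stage) and duration as the effect. Early (5 to 15 DAP) and late (20 to 30 DAP) stages were nested in a second fit that took the mean of both durations. For late against early stages, 6 stage means were used. P-values were adjusted by Benjamini-Hochberg over all transcripts, with no filter. The fits were tested on simulated data. Alternatives were a pseudocount of 0.1, a mean of at least 1 FPKM, median-ratio scaling, summed isoforms, each stage left out, single libraries left out, no block, control libraries only, and the side of a 90% limit on reads kept, taken from the study's read table, as a term. Leaving out the 20 DAP 6 h and 25 DAP 12 h libraries was chosen after seeing the data. Python 3 was used for summaries and figures.

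Named are PIL1 and the ORG3-like transcript; per test up to 6 higher and 6 lower called members with the smallest p, 1 per unigene; the 6 most abundant; members whose hit names a known bHLH gene; up to 4 called transcripts of each pathway list; and the 5 most similar transcripts of each of PIL1 and ORG3-like. c65818_g6_i2, single-library peaks and isoforms beyond this rule were chosen after their values were seen. Members and lists were chosen with earlier results of these data known, and role groups were drawn from best hits and GO terms with the files open. No sequence was used here.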

Additional observations from a re-analysis of the deposited data

Results flagged for a closer look

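In the 6 stage changes of each named member, a stage that stood far from the other 5 was sought, and 4 of 29 sets had one. Most sets were picked by a small p in these same data, and sets share controls, so no chance rate is given for this count. The bHLH123 transcript c71015_g1_i8 changed by 1.56 at 5 DAP after 6 h of cold, against 0.47 to 0.80 at the other stages. The transcript c48883_g1_i2 changed by 4.0 at 30 DAP after 6 h, against -0.07 to 1.36 elsewhere. The transcript c58778_g1_i3, annotated with photoperiodism, changed by -2.43 at 5 DAP after 6 h, against -0.99 to -0.46 elsewhere. The ORG3-like transcript c57701_g1_i2 differed between 12 h and 6 h by -3.34 at 10 DAP, against -1.12 to 0.09 elsewhere, through its single high library of 22.63 FPKM after 6 h. Each of these values rests on 1 library for each duration.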

How the results depend on the processing

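No named result changed direction while called. With the side of the 90% limit as a term, 12 h against control gave 1 member higher and 3 lower, 12 h against 6 h gave 0 higher, early stages gave 0 higher and 1 lower, and late stages gave 1 higher. Without the stage block, 6 h gave 2 higher and 3 lower, 12 h gave 5 lower, and 12 h against 6 h gave 0 higher. A mean of at least 1 FPKM left 12 early members lower. For late against early stages, median-ratio scaling gave 1 higher, a pseudocount of 0.1 gave 2 lower, and summed isoforms gave 1 unigene lower. Leaving out libraries gave 3 to 9 higher and 9 to 21 lower at 6 h, 7 to 10 higher and 14 to 23 lower at 12 h, and 1 to 4 higher for 12 h against 6 h. In early stages it gave 4 to 9 higher and 7 to 20 lower, in late stages 0 to 3 higher and 1 to 9 lower, and for late against early 0 to 8 higher and 0 to 2 lower. The lowest counts at 6 h came without 10 DAP (3 higher, 9 lower) and without 15 DAP (3 higher, 11 lower); in late stages without 25 DAP (1 lower) and 30 DAP (0 higher); in early stages without 10 DAP (7 lower) and 15 DAP (4 higher); and for 12 h against 6 h without 15 DAP (1 higher). For late against early stages, 0 were higher without 5, 10, 25 or 30 DAP and 8 without 20 DAP. The cause of these shifts was not tested. Of 696 comparisons of named members with alternatives, 568 stayed on their side of the threshold, 124 lost the call and 4 gained it. Each stage and duration has 1 library, the reads behind each FPKM are unknown, and low members are the least certain.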
